A study of Mus musculus with 27 samples.

Results

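The immunity-related GTPases (IRGs) described here are 6 mouse genes, Iigp1, Tgtp1, Tgtp2, Irgm1, Irgm2 and Igtp, taken by their symbols from the 19392 genes of the expression table. All 6 were above 0 FPKM in at least 3 kidneys and were among the 18188 genes tested. They were chosen by these FPKM values, high in 2 sham kidneys and low after ischemia, so their difference from the sham group is given as a description with no test. Each sample was the left kidney of a C57BL/6 mouse in the uIRIx model. In this model the right kidney was excised, the left renal pedicle was clamped on a warm plate, and the kidney was taken after 24 h of reperfusion. The 9 groups had ischemia times of 0 (sham), 16, 18, 20, 22, 24, 26, 28 and 30 min with 3 mice each, 27 kidneys in all, and the 24 kidneys from 16 to 30 min are called clamped below. The sham mice had also lost the right kidney, so no group was free of surgery, and the ages of the mice were not given in the sources used here. The mice came from a specific pathogen-free facility. The values are FPKM, sequenced fragments scaled to the length of the transcript and to the mapped fragments of the library, so levels can be compared between genes. The RNA came from tissue with all its cell types, in which fewer cells of a type and less RNA per cell cannot be told apart.

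IRG proteins are GTPases that defend cells against bacteria and parasites living in vacuoles. Iigp1 (also Irga6) and the Tgtp proteins (Irgb6) are effectors that load onto the vacuole membrane and help to break it. Irgm1, Irgm2 and Igtp (Irgm3) are regulators that sit on the cell's own membranes and keep the effectors inactive there. Most IRG genes are at low levels in resting cells and are induced by interferon gamma. The receptor chains Ifngr1 and Ifngr2 signal through the kinases Jak1 and Jak2, which leads to transcription from promoters with gamma-activated sites and to the induction of Irf1, which binds interferon-stimulated response elements.

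Of the members, 5 lie on chromosome 11 in 2 groups (GRCm38.p6, RefSeq). Irgm1 (48865245 to 48871420), Tgtp1 (48985329 to 48992246) and Tgtp2 (49057196 to 49064212) lie within 199 kb. Igtp (58199556 to 58207592) and Irgm2 (58214977 to 58222783) are 7.38 kb apart. The 120 bases before the start of these 5 genes are shown 5′ to 3′ on the gene's strand, because both kinds of interferon motif were found by their letters in 4 of them and 1 kind in Irgm1. Capitals mark matches to TTCNNNGAA, the core of a gamma-activated site, and to GAAANNGAAA, the core of an interferon-stimulated response element.
Tgtp1, chr11:48992247-48992366, minus strand: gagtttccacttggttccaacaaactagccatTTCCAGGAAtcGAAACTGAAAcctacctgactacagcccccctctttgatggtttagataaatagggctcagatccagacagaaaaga
Tgtp2, chr11:49064213-49064332, minus strand: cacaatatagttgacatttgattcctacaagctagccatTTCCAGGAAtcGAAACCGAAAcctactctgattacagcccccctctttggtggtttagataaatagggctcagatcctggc
Igtp, chr11:58199436-58199555, plus strand: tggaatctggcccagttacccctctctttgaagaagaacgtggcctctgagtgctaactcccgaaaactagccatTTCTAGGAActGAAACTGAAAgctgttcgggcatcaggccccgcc
Irgm2, chr11:58214857-58214976, plus strand: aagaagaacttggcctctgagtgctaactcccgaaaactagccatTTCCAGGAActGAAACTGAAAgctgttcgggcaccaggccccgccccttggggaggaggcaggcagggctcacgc
Irgm1, chr11:48871421-48871540, minus strand: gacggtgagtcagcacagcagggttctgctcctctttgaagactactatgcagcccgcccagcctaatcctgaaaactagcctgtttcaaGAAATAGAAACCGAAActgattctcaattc
GAAANNGAAA, searched on both strands, was in the 300-base promoter window (250 bases before to 50 after the start) of all 5 genes and in 3.44% of the 32851 RefSeq promoter windows of that length. TTCNNNGAA, which reads the same on both strands, was in 4 of the 5 and in 8.30% of all windows. In Tgtp1, Tgtp2, Igtp and Irgm2 it ended 2 bases before GAAANNGAAA. The motifs in this order, with starts at most 20 bases apart, were in 25 windows (0.0761%), and this spacing was chosen after the members' sequences were seen. The GAAANNGAAA match began 77 bases before the start in Tgtp1, 70 in Tgtp2, 34 in Igtp and 64 in Irgm2. Irgm1 had no TTCNNNGAA in its window and held 2 overlapping GAAANNGAAA matches, which began 30 and 24 bases before the start. The windows of Igtp and Irgm2 were 92.1% identical over their aligned bases, and those of Tgtp1 and Tgtp2 80.5%. A match is a description of the letters and not evidence of binding.

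Tgtp1 and Tgtp2 are near copies of each other. Their longest GENCODE M21 protein-coding transcripts were identical at 2804 of 2810 aligned bases (99.8%), and 83.3% of the 100-base windows of Tgtp1 and 80.4% of those of Tgtp2 were also found in another gene (Gm12185, an IRG relative, or the other Tgtp gene). The split of reads between the pair is therefore uncertain, and their summed level is given beside the single ones. Igtp shared 5.67% of its windows with Irgm2, Irgm2 shared 2.48% with Igtp, and Iigp1 and Irgm1 shared none with any other gene. Iigp1, the 6th member, is on chromosome 18.

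The 3 sham kidneys did not have the same IRG level. Iigp1 was at 6.11 FPKM in sham kidney 1, 470.1 in kidney 2 and 361 in kidney 3. Tgtp1 was at 9.3, 613 and 535 FPKM, and Tgtp2 at 3.68, 163 and 135 FPKM. In each effector gene kidney 1 was far below the other kidneys, which lay close together. Irgm1 was at 32.1, 410 and 326 FPKM, Irgm2 at 11.2, 171 and 134 FPKM, and Igtp at 17.4, 503 and 363 FPKM. The regulators showed the same split with smaller ratios. Kidney 2 held 76.9 times the Iigp1 of kidney 1, 65.9 times the Tgtp1 and 44.3 times the Tgtp2, but 29.0 times the Igtp, 15.3 times the Irgm2 and 12.8 times the Irgm1. The median ratio of kidney 2 to kidney 1 was 36.6 over the 6 members and 0.960 over all genes, and that of kidney 3 to kidney 1 was 28.8 and 0.992.

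A ratio of at least 10 to kidney 1 in both other sham kidneys was found in 26 of 18188 genes (0.143%). All 6 members were among the 26, which their choice by the same values fixes, so nothing is read from it, and Irgm1 lay just inside with a lower ratio of 10.2. The others included 4 other IRG family genes (Gm4841, Gm12250, Gm12185 and Gm4951), the IRG gene Ifi47 and 3 guanylate-binding protein genes (Gbp3, Gbp6 and Gbp10). The labels of the 3 sham mice do not differ except in the replicate number, and what separates kidney 1 was not tested. The members' values and the counts over gene lists against the sham group are therefore given with and without kidney 1.

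**Figure D1:**
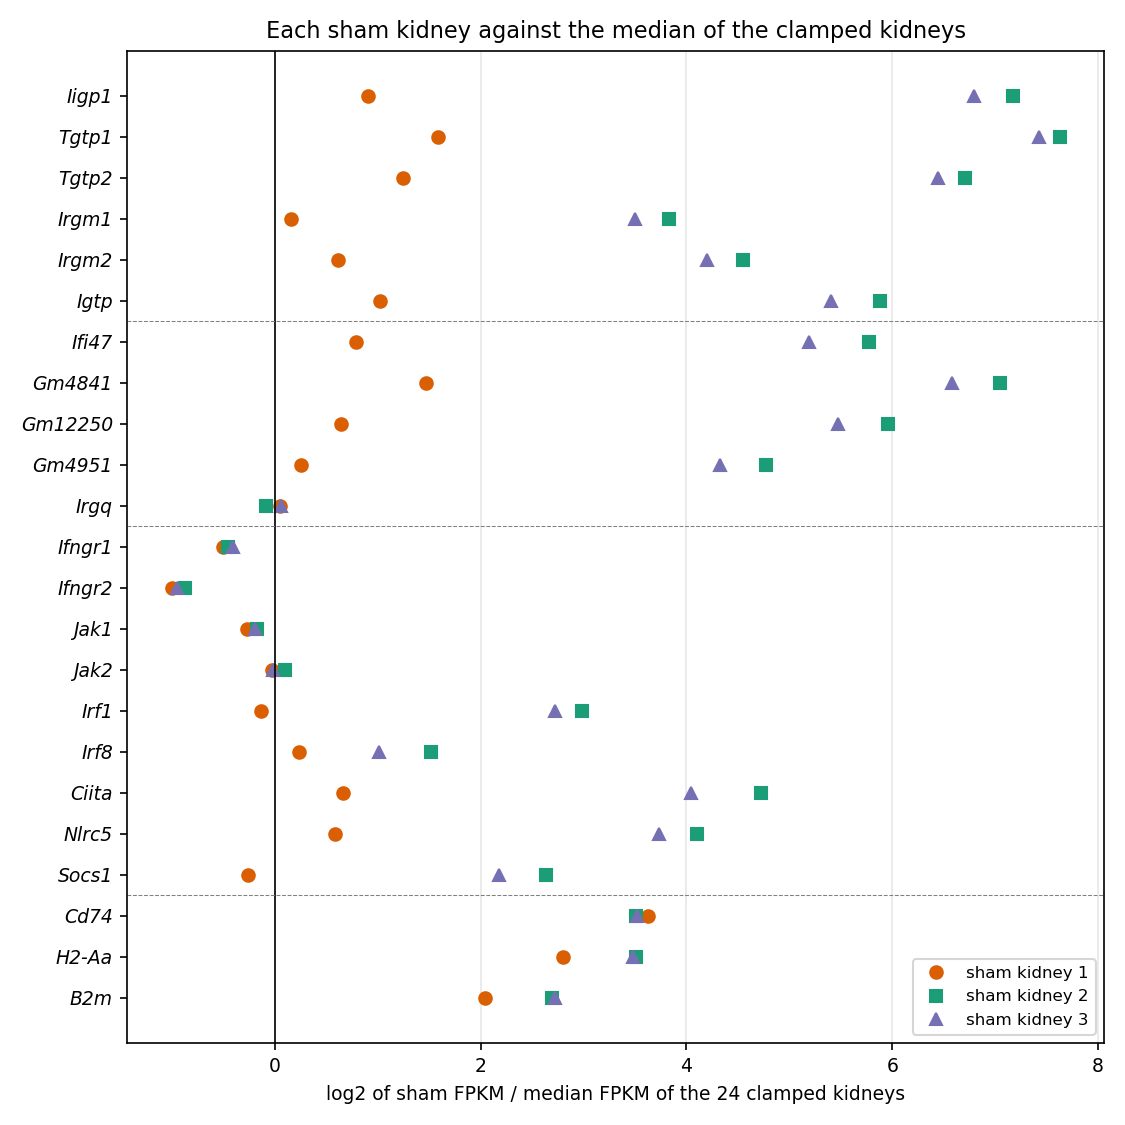
The x axis gives the log2 ratio of each sham kidney's FPKM to the median FPKM of the 24 clamped kidneys, for the 6 members, IRG relatives, interferon gamma signalling genes and 3 antigen presentation genes on the y axis. Sham kidney 1 (circles) is within 1.58 of the clamped median for every member, while kidneys 2 (squares) and 3 (triangles) are 3.50 to 7.63 above it, and all 3 kidneys lie together for Ifngr1, Jak2, Irgq and Cd74.

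In the clamped kidneys all members were low. Over the 24 kidneys Iigp1 ranged from 0.88 to 6.23 FPKM (median 3.25), Tgtp1 from 0.53 to 6.03 (median 3.11) and Tgtp2 from 0.31 to 3.31 (median 1.56). Irgm1 ranged from 15.2 to 31.6 FPKM (median 28.8), Irgm2 from 3.13 to 9.23 (median 7.32) and Igtp from 2.75 to 12.03 (median 8.55). Sham kidneys 2 and 3 were above all of these values for every member. Kidney 1 was also above all 24 clamped kidneys for 5 members, and above 23 of 24 for Iigp1, but by a small margin: it was at 1.11 times the clamped median for Irgm1, 1.53 for Irgm2, 1.88 for Iigp1, 2.03 for Igtp, 2.37 for Tgtp2 and 2.995 for Tgtp1. Over all genes, kidney 1 was above every clamped kidney for 9.63% and all 3 sham kidneys were for 3.74%.

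On the log2(FPKM + 1) scale the difference of 16 min from sham was -5.50 for Tgtp1, -5.01 for Iigp1, -4.29 for Tgtp2, -4.28 for Igtp, -3.21 for Irgm2 and -2.85 for Irgm1. Without sham kidney 1 it was -7.45, -6.99, -5.92, -5.82, -4.38 and -4.02 in the same order. At 30 min the difference from sham was largest for Tgtp1 (-6.62) and smallest for Irgm1 (-3.32), and without kidney 1 these were -8.58 and -4.49. All 6 members were below -1 at each of the 8 ischemia times, as were 1.07, 1.2, 1.07, 1.28, 1.23, 1.65, 4.24 and 5.6% of all genes from 16 to 30 min. This is the comparison by which the members were chosen, so nothing is read from that count. All 8 comparisons share the 3 sham kidneys and are not independent of each other.

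**Figure D2:**
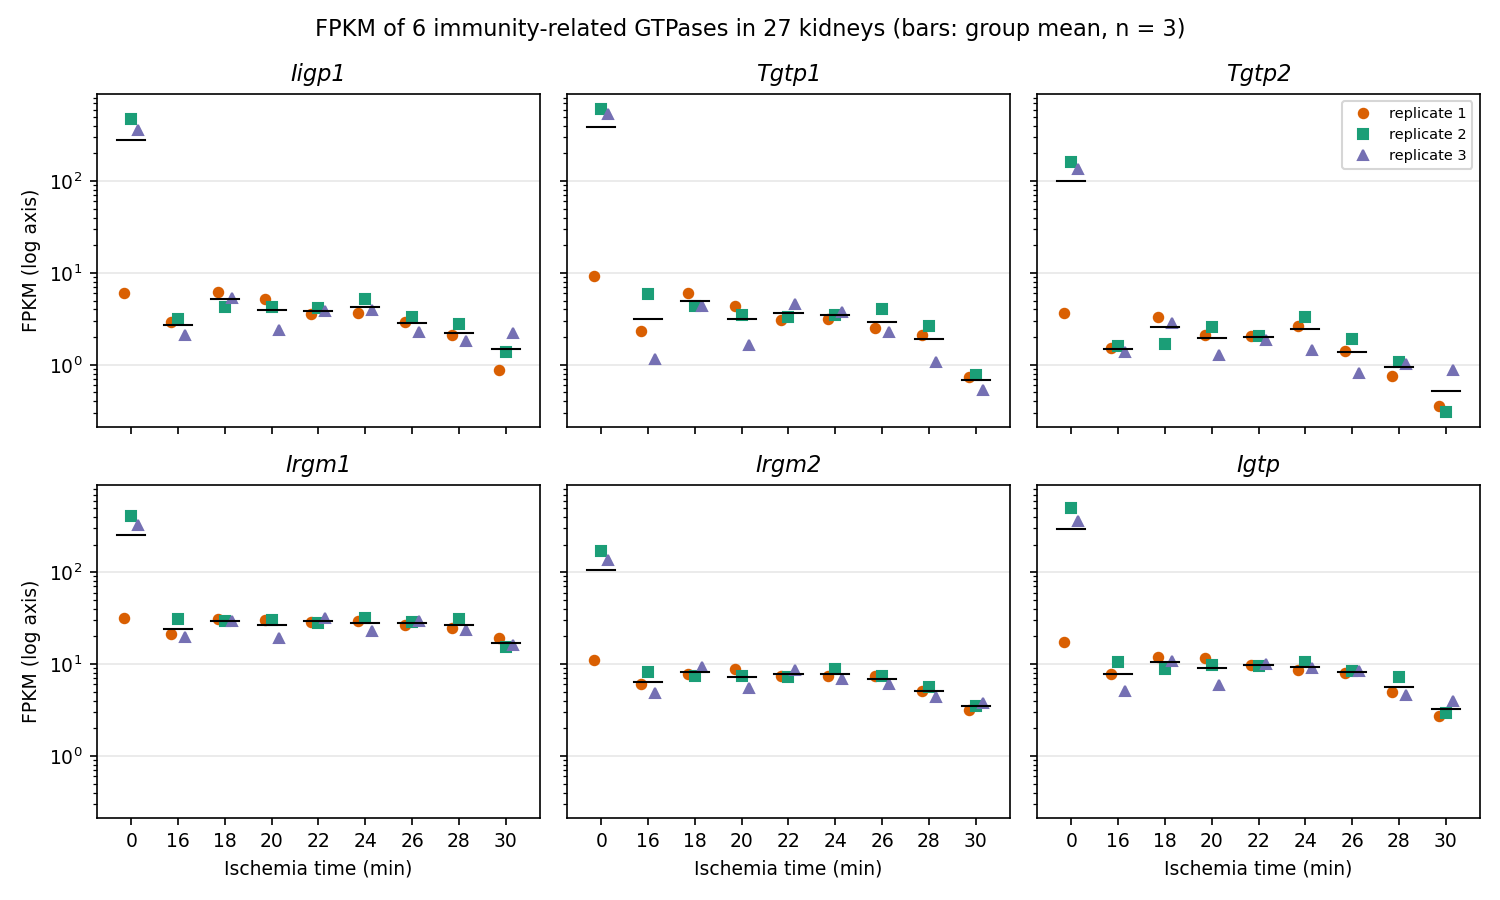
Each panel plots the FPKM of 1 gene (y axis, log scale) in the 27 kidneys against ischemia time in min (x axis), with symbols for the replicate number and a bar for the group mean (n = 3). At 0 min 1 kidney lies near the clamped kidneys and the other kidneys lie far above, and from 16 to 30 min the lowest group mean of each gene is at 30 min.

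The make-up of the IRG transcripts differed between the high sham kidneys and the rest. Irgm1 made up 17.6% of the summed FPKM of the 6 genes in sham kidneys 2 and 3, 40.3% in kidney 1 and 46.4 to 71.2% in the clamped kidneys (median 52.9%). Tgtp1 was the most abundant member in kidneys 2 and 3, at 26.3 and 28.9% of the sum, and made up 11.7% in kidney 1 and 1.94 to 9.76% in the clamped kidneys. The sum itself was 79.7 FPKM in kidney 1, 2331 in kidney 2 and 1855 in kidney 3, against 24.1 to 66.0 FPKM in the clamped kidneys. Irgm1 was the highest member in all 24 clamped kidneys, and the order Irgm1, Igtp, Irgm2, Iigp1, Tgtp1, Tgtp2 was found in 14 of them. In all 24 clamped kidneys and in sham kidney 1 each of the 3 regulator genes was above each of the 3 effector genes, while in sham kidneys 2 and 3 the effector Tgtp1 was above every regulator. Tgtp1 took 71.6 to 79.8% of the summed Tgtp level in the sham kidneys and 37.9 to 78.9% in the clamped ones, a split that the shared sequence makes uncertain.

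**Figure D3:**
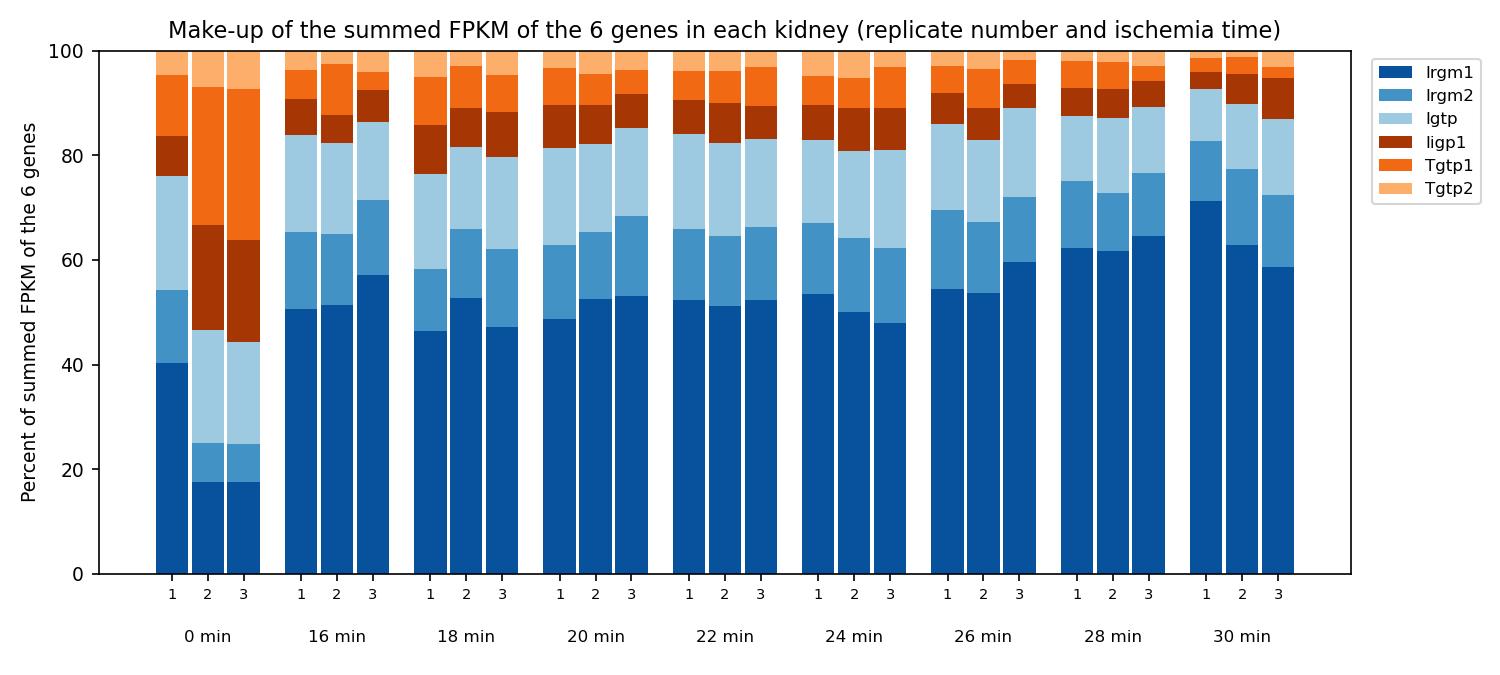
The bars give the percent of the summed FPKM of the 6 genes (y axis) taken by each gene in each of the 27 kidneys (x axis, ordered by ischemia time and replicate number), regulators in blue and effectors in orange. The regulators take 44.4 to 46.5% of the bar in sham kidneys 2 and 3, and Irgm1 alone takes at least 46.4% in every clamped kidney.

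Among the clamped groups the 6 genes shared their highest and lowest times. Each had its highest clamped mean at 18 min and its lowest at 30 min. Igtp was at 10.6 ± 1.67 FPKM (SD, n = 3) at 18 min and at 9.86 ± 0.275 FPKM in the 22 min group. It was at 8.25 ± 0.229 FPKM in the 26 min group, 5.61 ± 1.46 in the 28 min group and 3.23 ± 0.656 in the 30 min group. For Irgm2 the same groups from 26 to 30 min were at 6.96 ± 0.722, 5.07 ± 0.622 and 3.46 ± 0.308 FPKM, after 8.12 ± 0.989 in the 18 min group. Irgm1 stayed between 26.5 ± 4.14 and 29.7 ± 0.794 FPKM from 18 to 28 min and was at 16.9 ± 2.23 at 30 min.

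The effectors were at lower levels, with means that also ended lowest at 30 min. Tgtp1 was at 4.94 ± 0.947 FPKM (SD, n = 3) in the 18 min group, and at 2.93 ± 0.949, 1.92 ± 0.793 and 0.683 ± 0.134 FPKM in the groups with 26, 28 and 30 min. Tgtp2 was at 2.61 ± 0.845 FPKM at 18 min and 0.513 ± 0.310 at 30 min, and Iigp1 at 5.25 ± 1.0 and 1.49 ± 0.660. The 16 min group was below the 18 min mean for every member, with a wide spread in Tgtp1, which was at 2.33, 5.93 and 1.16 FPKM in its 3 kidneys. When the 9 groups were ordered by their mean, 6 or 7 of the 8 pairs of neighbours overlapped in each gene. The pairs that did not overlap were 28 and 30 min in Tgtp1, Irgm2 and Igtp, 16 and 30 min in Irgm1, 22 and 26 min in Iigp1, and sham and 18 min in all but Iigp1.

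To ask whether the IRG level differed with longer ischemia without using the sham or 16 min kidneys, the 28 and 30 min kidneys were compared with those from 18 to 24 min. Igtp was at 9.72 ± 1.59 FPKM (SD, n = 12) from 18 to 24 min and at 4.96, 7.28, 4.59, 2.75, 2.97 and 3.98 FPKM in the 28 and 30 min kidneys. Of these, 28 min kidney 2 was inside the 18 to 24 min range, which began at 5.97, and the other 5 were below it. Tgtp1 was at 3.81 ± 1.07 FPKM and at 2.09, 2.62, 1.06, 0.74, 0.78 and 0.53 FPKM, with all 3 kidneys at 30 min below the lowest earlier value of 1.65. Irgm2 was at 7.70 ± 1.02 FPKM and at 5.13, 5.66, 4.42, 3.13, 3.51 and 3.74 FPKM, with 1 value above the lower end of 5.5.

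The mean of each other member was lower in the late kidneys as well. Iigp1 was at 4.32 ± 1.02 FPKM (SD, n = 12) from 18 to 24 min and 1.86 ± 0.661 (n = 6) at 28 and 30 min. Tgtp2 was at 2.26 ± 0.672 and 0.733 ± 0.330 FPKM, with no overlap between the 6 and the 12 kidneys. Irgm1, the most abundant member, was at 28.4 ± 3.73 and 21.7 ± 6.07 FPKM. Its 28 min kidneys (24.85, 31.26 and 23.52 FPKM) and 1 kidney at 30 min (19.4 FPKM) were above the lowest earlier value of 19.0. The 30 min kidneys were below every kidney from 18 to 24 min in 5 of the 6 members, as they were in 15.4% of all genes, and the 28 min kidneys were in 1 (Tgtp2), against 12.3%.

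**Figure D4:**
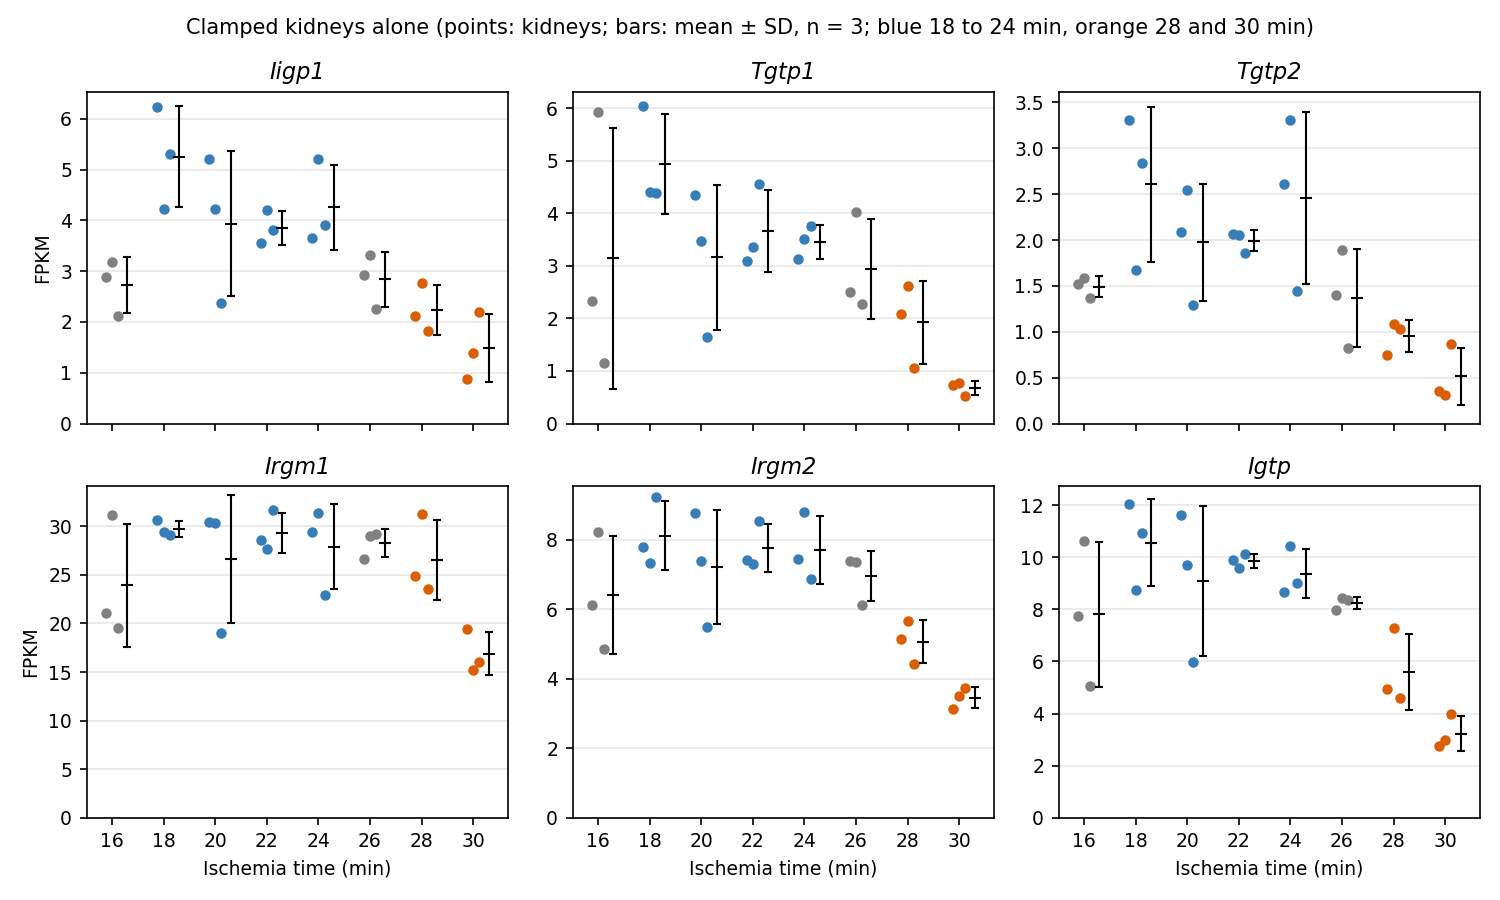
Each panel plots the FPKM of 1 gene (y axis, linear from 0) in the 24 clamped kidneys against ischemia time in min (x axis), with the mean ± SD of each group (n = 3) beside its points, the 18 to 24 min kidneys in blue and the 28 and 30 min kidneys in orange. At 30 min all 3 kidneys lie below every blue point for each gene but Irgm1, and the 16 min kidneys of Tgtp1 spread from 1.16 to 5.93.

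In limma fitted to all 27 kidneys, no member passed the threshold for a DEG (absolute log2 difference above 1 and Benjamini-Hochberg adjusted p under 0.05) in this comparison. Over all genes 2.53% were lower and 1.25% higher by that rule. The log2 differences ± SE were -1.08 ± 0.57 for Tgtp1 (limma adjusted p = 0.125), -1.02 ± 0.44 for Igtp (0.0595), -0.88 ± 0.56 for Iigp1 (0.204) and -0.87 ± 0.46 for Tgtp2 (0.131). Those of Irgm2 and Irgm1 were -0.74 ± 0.34 (limma adjusted p = 0.0734) and -0.42 ± 0.34 (0.322). The unadjusted p was under 0.05 for 2 members (Irgm2 and Igtp) and for 55.7% of all genes.

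The spread in that fit came mostly from kidneys that the comparison does not use. The sham kidneys held 89.8 to 95.6% of the members' sum of squared deviations from their group means. The SD around the group means was 0.70 to 1.19 over the 27 kidneys on the log2 scale and 0.16 to 0.30 over the kidneys from 18 to 30 min. In a fit without sham kidney 1 the differences were nearly unchanged, and all 6 members had a limma adjusted p of 0.0023 or less (Irgm2 the lowest, at 1.3e-06). Tgtp1 (-1.08 ± 0.19) and Igtp (-1.02 ± 0.13) then passed as DEGs, while the other members stayed above -1, and 2.54% of all genes were lower DEGs. Without sham kidney 2 or 3, Igtp alone passed (limma adjusted p = 0.0273 and 0.0484, with 2.53% of all genes lower in each fit). A fit of only the 18 kidneys compared gave the same 2 genes, with limma adjusted p from 2.1e-06 to 0.0024 over the members and 2.54% of all genes lower. The share of all genes at such adjusted p was not counted. Small p were common here, with 55.7% of all genes under 0.05 unadjusted in the limma fit of all 27 kidneys. Whether the members' adjusted p in these fits set them apart from other genes was not tested. The call thus changed with the kidneys used to estimate the spread, while the sizes of the differences hardly moved.

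**Figure D5:**
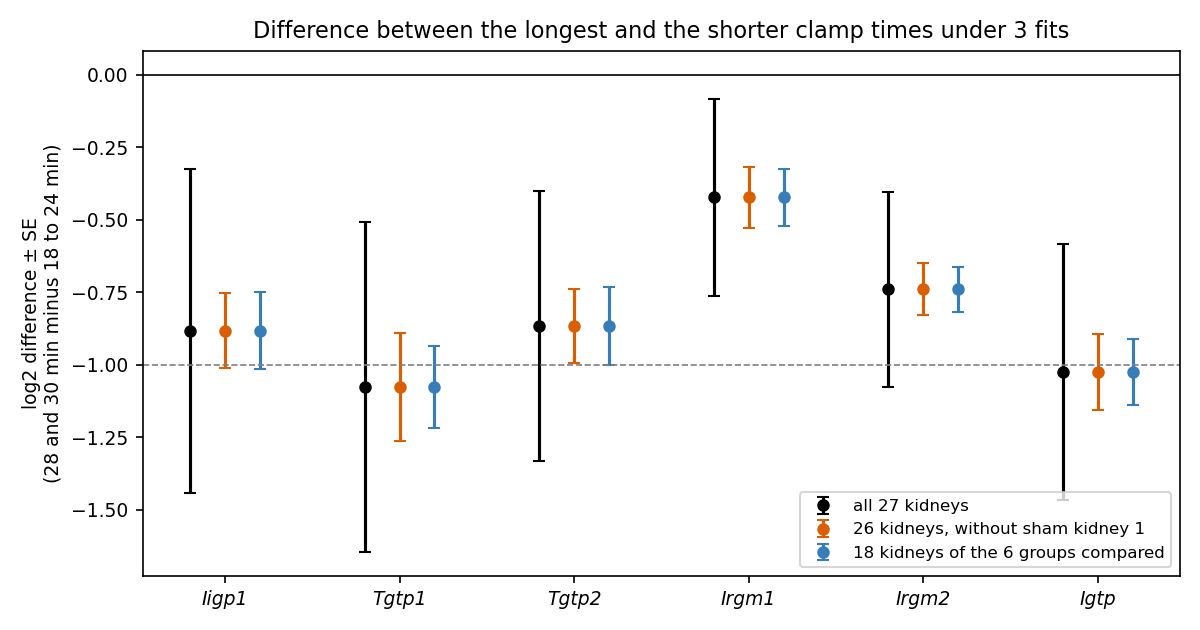
Points give the log2 difference of the 28 and 30 min kidneys from the 18 to 24 min kidneys (y axis) with bars of ± 1 SE, for the 6 genes (x axis) in fits of all 27 kidneys, of 26 without sham kidney 1, and of the 18 kidneys compared. The points of a gene lie close together in the 3 fits, the SE is 0.34 to 0.57 with all 27 kidneys and 0.09 to 0.19 without sham kidney 1, and the dashed line at -1 is the DEG threshold.

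Since reads may be shared between the Tgtp genes, their summed FPKM was compared as a single value. It was 6.06 ± 1.5 (SD, n = 12) from 18 to 24 min, with a range of 2.94 to 9.34, and 2.04 ± 1.06 (n = 6) at 28 and 30 min, with a range of 1.09 to 3.70. The difference of the mean log2(sum + 1) was -1.26 (exact permutation test over 18564 arrangements, two-sided, p = 0.000108). This p is not adjusted, and the share of all genes that reach it was not computed. In limma 55.7% of all genes had an unadjusted p under 0.05 in this comparison, so small p were common. Whether the permutation p sets the pair apart from other genes was not tested.

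None of the single steps passed the test. From 26 to 28 min the members' log2 differences lay between -0.50 (Igtp) and -0.14 (Irgm1), and from 28 to 30 min between -0.78 (Tgtp1) and -0.41 (Iigp1). No member was a DEG at either step (limma adjusted p of 0.572 or more). Over all genes 1.06% were lower and 0.44% higher at the first step, and 0.649 and 0.401% at the second. No member had an unadjusted p under 0.05 at either step in the fit of all 27 kidneys, against 31 and 26.8% of all genes. The members' spread in that fit came mostly from the sham kidneys, so this does not show that they were steadier than other genes. Over the other fits tried, the lowest limma adjusted p was 0.0462 (Irgm2) at the first step and 0.0329 (Irgm1) at the second. Both differences stayed above -1. Kidneys did not overlap between 28 and 30 min in 4 members (Tgtp1, Irgm1, Irgm2 and Igtp) and between 26 and 28 min in 2 (Irgm2 and Igtp), and 16.4% of all genes were lower without overlap at each step. The linear change over the 8 min from 18 to 26 min lay between -0.52 (Iigp1) and -0.04 (Irgm1) on the log2 scale, with no member called (limma unadjusted p of 0.528 or more) and 0.0055% of all genes called lower (1 gene).

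Markers of cell types differed between these kidneys as well, in a comparison where 2.53% of all genes were lower DEGs and 1.25% higher. The summed FPKM of 17 T and NK cell genes was 3.15 to 6.57 from 18 to 24 min and 1.27 to 1.94 at 28 and 30 min, and none of the 17 passed as a DEG in limma there (Cd8a had the largest difference, -0.67 on the log2 scale, and 10 had an unadjusted p under 0.05, near the 55.7% of all genes). The summed FPKM of 5 proximal tubule genes was 17731 to 32178 and 5737 to 9129, and 3 of the 5 fell (Slc34a1, the phosphate transporter, by 1.93, the endocytic receptor Lrp2 by 1.45 and Kap by 2.11 on the log2 scale). Slc5a2 and Slc22a6 were not called. Most of this sum was Kap, with group means of 16680.5 to 24394 FPKM from 18 to 24 min and 5987 to 6961 late. The summed FPKM of 5 neutrophil genes was 2.36 to 5.79 and 12.4 to 27.5, and 2 of the 5 rose (S100a8 by 1.71 and S100a9 by 1.76 on the log2 scale), while Ly6g, a defining marker, was at or below 0.49 FPKM in all these kidneys and differed by -0.14. The sum of 8 macrophage genes overlapped between these groups (77.2 to 112 and 61.9 to 118 FPKM). The part of these cells in the members' lower late level was not tested.

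The same markers were also compared among the 3 sham kidneys. T and NK cell genes summed to 9.70 FPKM in kidney 1 and to 3.91 and 3.98 in kidneys 2 and 3, so the kidney with low IRGs had the higher sum. Of the 17 genes 12 were lower in both other kidneys, while Ncr1, Klrb1c, Prf1, Il2rb and Tbx21 were not. Each of the 17 was at or below 1.48 FPKM in these kidneys, and the share over all genes was not counted. Macrophage genes summed to 66.8, 73.0 and 80.6 FPKM, endothelial genes to 76.8, 70.9 and 84.1, and 4 B cell genes to 1.07, 0.89 and 0.69. Neutrophil genes summed to 3.06, 8.08 and 9.97 FPKM, lowest in kidney 1 as the IRGs were, and none of these sums differed between kidneys as widely as the members did. The part of these cells in the sham split was not tested. Markers of the labelled tissue were high in all 3 sham kidneys (Slc34a1 at 2028 to 2377 FPKM, the loop of Henle gene Umod at 1247 to 1405 and the collecting duct gene Aqp2 at 178 to 295). The tubular injury marker Lcn2 was at 11.5, 9.39 and 63.6 FPKM, highest in kidney 3.

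Part of the wider IRG family was also lower after ischemia than the sham mean. Of the 10 other family genes listed, 9 were tested, and 5 were lower at 16 min than in sham while none was higher, against 0.979% lower and 1.28% higher over all genes. Gm4841, also on chromosome 18, fell by 3.87 on the log2 scale (limma adjusted p = 0.00078), Gm12250, next to Igtp, by 2.63, Gm4951 by 2.13, Gm5431 by 1.5 and Gm12185 by 1.27. F830016B08Rik, 9930111J21Rik1 and 9930111J21Rik2 differed by -0.72, -0.80 and -0.69 and did not reach the log2 threshold. The IRG gene Ifi47, which is outside this list, fell by 3.70. With sham kidney 1 left out, 6 of the 9 were lower (1.12% of all genes), with 4 without kidney 2 (0.743%) and 5 without kidney 3 (0.936%). limma used 1 spread for all groups, which in genes split like the members was narrower than that of the sham kidneys. For the members the sham SD was 2.03 to 3.43 on the log2 scale, against 0.70 to 1.19 in the fit. The adjusted p of Gm4841 and the calls against sham here and below are therefore too favourable for such genes. Gm4841 was at 1.26, 60.2 and 43.4 FPKM in the sham kidneys and at most 0.97 in the clamped ones, so its sham kidneys were split like those of the members. In Gm12250 and Gm4951 sham kidney 1 (0.5 and 0.55 FPKM) lay inside the clamped range, which reached 0.56 and 0.8. Gm12185 shares sequence with the Tgtp genes, so its level is uncertain as theirs is. Irgq, a distant relative, was at 7.34, 6.69 and 7.40 FPKM and differed by -0.01 at 16 min. Irgc1, a testis gene of the family, was listed at 0 in every kidney. None of the 9 was a DEG between the late and the 18 to 24 min kidneys in limma. An unadjusted p under 0.05 was found for 1 (Irgq, higher) and for 55.7% of all genes. The SE was 0.042 for Irgq, but 0.420 for Gm4841 and 0.334 for Gm12250, whose sham kidneys were split. The count therefore does not show whether the split relatives changed late.

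Within the interferon gamma pathway, the receptors and kinases did not show the sham split, while Irf1 and other genes that the pathway induces did. Ifng, the ligand, was at 0.11, 0.10 and 0.05 FPKM in the sham kidneys and at most 0.10 in the clamped ones. The receptor chains Ifngr1 (14.96, 15.5 and 16.0 FPKM) and Ifngr2 (12.7, 13.8 and 13.1) and the kinases Jak1 (31.6, 33.8 and 33.5) and Jak2 (8, 8.75 and 8.07) were alike in the 3 sham kidneys, and none of the 4 was a DEG at 16 min. Irf1 was at 8.82, 76.6 and 63.9 FPKM in the sham kidneys and at 5.06 to 15 in the clamped ones, with sham kidney 1 inside the clamped range. Of 11 genes of this list tested, 6 fell at 16 min and none rose, against 0.979% lower and 1.28% higher over all genes. The 6 were Irf1 (log2 difference -1.96), Irf8 (-1.24), Ciita (-2.42), Nlrc5 (-1.97), Batf2 (-1.19) and the inhibitor Socs1 (-1.04). Leaving out sham kidney 1 also gave 6 (1.12% of all genes), leaving out kidney 2 gave 2 (0.743%) and leaving out kidney 3 gave 5 (0.936%). At 30 min 5 were lower and Ifngr2 was higher (1.54), where 5.59% of all genes were lower and 5.14% higher. Without sham kidney 1, 2 or 3 the number lower at 30 min was 5, 3 and 4, against 5.53, 5.39 and 5.82% of all genes. Between the late and the 18 to 24 min kidneys none of the 11 was a DEG in limma. An unadjusted p under 0.05 was found for 4, all higher (Ifngr1, Ifngr2, Jak1 and Irf8), and for 55.7% of all genes. The SE in this fit was 0.052 for Jak1 and 0.096 for Ifngr1. It was 0.279 for Ciita and 0.291 for Irf1, whose sham kidneys were split. The count therefore does not show whether the split genes changed.

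Other interferon-induced genes and autophagy partners of the IRGs were counted at 16 min in the same way. Of all genes 0.979% were lower at that time, and 1.12, 0.743 and 0.936% without sham kidney 1, 2 and 3. Of 10 guanylate-binding protein genes, GTPases that act with the IRGs at the vacuole, 9 fell, led by Gbp6 (-5.90) and Gbp10 (-4.53), and 9 did without sham kidney 1 but 5 without kidney 2 and 8 without kidney 3. Of 14 genes of antigen presentation and interferon gamma chemokines 11 fell, led by H2-Ab1 (-3.74) and Cd74 (-3.51), 12 without kidney 1 and 10 without kidney 2 or kidney 3. Of 18 genes of the type I interferon response 12 fell, led by Irf7 (-2.86) and Ifit1 (-1.98), 17 without kidney 1 and 5 without kidney 2 or kidney 3. Of 10 autophagy genes whose proteins work with the IRGs, 1 fell (Gabarapl1, -1.39), and 1 was called in each fit without a sham kidney. Between the late and the 18 to 24 min kidneys 1 guanylate-binding protein gene fell (Gbp3, by 1.02, limma adjusted p = 0.0124) and 1 antigen presentation gene (H2-Aa, by 1.16), against 2.53% of all genes. None of the type I interferon or autophagy genes was called, and 7 and 4 had an unadjusted p under 0.05, against 55.7% of all genes. Genes split between the sham kidneys had a wide spread in this fit, so these late counts do not show whether such genes changed. These lists were made with earlier results of these data known, and the calls share the sham kidneys with the members.

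Antigen presentation genes differed among themselves in the sham kidneys, and those given here were chosen after their values were seen. Cd74, the invariant chain, was at 674, 622 and 624 FPKM in the sham kidneys and at 21.1 to 87.7 FPKM in the clamped ones, so all 3 sham kidneys were high. B2m was at 1332, 2090 and 2127 FPKM, and 255 to 382 in the clamped kidneys. The class II genes H2-Aa (112, 184 and 180 FPKM), H2-Ab1 (249.1, 392 and 399.7) and H2-Eb1 (34.2, 87.9 and 78.5) were lower in kidney 1, which was still above every clamped kidney for each. The peptide transporter Tap1 (6.33, 68.9 and 48.0 FPKM) and the immunoproteasome genes Psmb8 (12.2, 115 and 83.7) and Psmb9 (4.75, 78.9 and 46.0) were split like the members, with kidney 1 near the clamped range, and so was the class II activator Ciita (1.04, 17.3 and 10.8).

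The genes most like the members were taken by Pearson's r with the mean standardized profile of the 6, over genes of at least 1 FPKM on average. Over the 27 kidneys these included Ifi47 (r = 0.996), Gm4841 (0.987), Nlrc5 (0.987) and Gbp4 (0.983), of 12340 genes compared. Over the 21 kidneys from 18 to 30 min they were Gbp6 (0.942), Ifi47 (0.935), Atpif1 (0.929), Ergic3 (0.926) and Olfm4 (0.921), of 12328. Ifi47, which encodes another IRG protein and lies beside Tgtp2, was at 3.63, 115 and 76.6 FPKM in the sham kidneys and at 0.64 to 3.59 in the clamped ones. Atpif1, an inhibitor of the mitochondrial ATP synthase, was at 243, 236 and 241 FPKM in the sham kidneys, which lay close together, unlike those of the members. Among the members r ranged from 0.978 to 0.997 over the 27 kidneys and from 0.707 (Tgtp2 and Irgm1) to 0.970 (Irgm2 and Igtp) over the 24 clamped ones. The points of each correlation share the 27 libraries and their depth, and the first set rests on the sham kidneys.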

How the data were processed

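The authors sequenced RNA of 27 left kidneys, 3 at each of 9 ischemia times, and deposited FPKM for each gene symbol, rounded to 2 decimals. The submitters' processing notes name Bowtie2, RSEM and DESeq2 and the build GRCm38.p6, while the annotation is not given in the sources used here. Read counts were not analysed here, which leaves the depth unknown, and precision is judged from replicates. FPKM summed to 512453 to 554036 per kidney, with 16498 to 16904 genes above 0.

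Groups followed the labels. Values were taken as log2(FPKM + 1), which understates changes of low genes, and quantile normalized. limma 3.58.1 (R 4.3.3) was fitted with a mean for each of the 9 groups, over 18188 genes (those above 0 FPKM in 3 kidneys or more), with Benjamini-Hochberg adjustment over all of them. DEGs had an absolute log2 difference above 1 and an adjusted p under 0.05. The steps were tested on simulated data. Likeness, motifs and identities were computed in Python 3.11.15 with Biopython 1.88. The sequences are RefSeq's, and 5 of the 6 members were matched.

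The members, the gene lists and the tests were chosen with earlier results of these data known. The genes named are the members, the IRG relatives, the interferon gamma signalling genes, the 2 genes of each other list with the largest difference, and the 5 genes most like the members over each set of kidneys. Of these genes 1 is not reported here and is left out of the list counts. The marker, type I interferon and antigen presentation genes given with sham values, and the motif spacing, were chosen after values were seen. Alternatives were no quantile normalization, TPM, a pseudocount of 0.1 FPKM, a stricter filter (1 FPKM or more in 3 kidneys, 12929 genes), no filter, a trend in eBayes, a fit of only the groups compared, the replicate number as a block, and leaving out each kidney in turn.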

Additional observations from a re-analysis of the deposited data

How the results depend on the processing

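For 28 and 30 min against 18 to 24 min, the number of members called lower was 0 in the fit of all 27 kidneys, 1 with TPM, 1 with the filter of at least 1 FPKM, 3 with a pseudocount of 0.1 FPKM (Tgtp1, Tgtp2 and Igtp) and 2 in the fit of only the groups compared. Of all genes 2.53, 3.06, 3.57, 4.33 and 2.54% were lower in these fits. Leaving out each kidney in turn gave 0 to 2, with 2 without sham kidney 1 and 1 without sham kidney 2 or 3 (Igtp). The members' log2 differences kept their sign under every setting in this comparison, and adjusted p ranged from 1.3e-06 to 0.441. For the steps from 26 to 28 and from 28 to 30 min and for the slope from 18 to 26 min, no member was called under any setting tried. At the 2 steps some adjusted p fell under 0.05, as given above, and there only the log2 threshold prevented a call. Against sham every member stayed below -1 under each setting. The members were chosen for this difference and each setting kept a high sham kidney, so nothing is read from it. The summed Tgtp difference was -1.41 with TPM and -1.40 to -1.16 when each kidney was left out. With the replicate number as a block 0 members were called, and the adjusted p of Igtp was 0.0607. The numbers did not pair the kidneys, since deviations from the group means had a mean correlation of 0.00868 between kidneys of the same number (-0.416 to 0.480 over 108 pairs). The depth of the libraries is unknown, so values under 1 FPKM cannot be given a counting error.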
